A study of Mus musculus with 15 samples.

Results

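The genes described here supply cells with sialic acid, load it into the Golgi, modify it and take it off again. They are Gne, Nans, Nanp, Cmas, Slc35a1, Nagk, Npl, Neu1, Neu3 and Casd1, 10 of the 53380 features in the count tables, and were found by matching gene IDs to these mouse symbols. All 10 were found and all 10 passed the low-count filter that left 14485 genes for testing. Expression was measured by RNA-seq of polyA RNA in cultured mouse T-ALL cells (an acute leukemia of T lymphoblasts) from tumors of EμSRα-tTA/tet-O-MYC mice. In this model a tetracycline-controlled transactivator, driven in lymphocytes, keeps a human MYC transgene on until doxycycline is added. The groups were MYC on cells at 0 h (mock treated) and MYC off cells at 2, 4, 8 and 24 h of doxycycline, with 3 libraries each and 15 in all. Every group carries the same transgenes, and a MYC on culture kept for 24 h without doxycycline was not analysed here, so time in culture and loss of MYC cannot be told apart. Whether the 3 libraries of a group stem from separate cultures is not stated in the labels, so p-values measure the spread between libraries, which may be technical.

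Sialic acid is the negatively charged sugar at the outer end of many glycans and is what Siglec receptors on immune cells bind. Cells make it from UDP-GlcNAc through ManNAc and its phosphates, activate it in the nucleus as CMP-sialic acid, and carry that donor into the Golgi, where sialyltransferases use it. Sialidases remove sialic acid from glycans in lysosomes and at the plasma membrane, and free sialic acid can be reused or cleaved.

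The libraries held 25852711 to 27102318 counts. As a check of the labels, the MYC transgene was at 2023 ± 52.2 CPM (counts relative to the TMM-scaled library total, SD, n = 3) at 0 h, at 24.8 ± 1.98 CPM at 2 h and at 3.29 ± 0.313 CPM at 24 h. All 10 T lineage markers had counts, summing to 3032 to 6061 CPM per library, whereas 5 B cell markers summed to at most 0.367 CPM and 5 erythroid markers to at most 0.0791 CPM. The 6 myeloid markers summed to 24.9 to 31.9 CPM at 24 h, against 10.5 to 12.4 CPM at 0 h, nearly all of it from Itgam, Csf1r and Cd68, while Lyz2 and Cd14 had 0 counts in every library. The part of other cell types in the results was not tested beyond these levels. The 5 stromal markers summed to 2.42 to 4.07 CPM at 24 h and 2.66 to 3.37 CPM at 8 h, against 1.31 to 1.66 CPM at 0 h. The library 24 h replicate 3 stood apart. Its chi-square over degrees of freedom against the other 24 h libraries was 77.7 and 85.4, against 2.81 to 16.5 in the other pairs, and ribosomal protein genes took 3.18% of its counts where they took 4.99% and 5.29% in the other 24 h libraries.

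After doxycycline, genes of this short pathway changed in opposite directions. In these bulk samples fewer cells of a type and less RNA per cell cannot be told apart. Gne, which starts sialic acid synthesis, and Neu1, the lysosomal sialidase, were lower at every time after doxycycline. Nagk, which salvages GlcNAc, was higher from 4 h on, and Neu3, the plasma membrane sialidase, was higher at every time. Cmas and Npl were higher at 8 h, calls that held in 23 and 22 of 23 alternatives of processing. Cmas was also called higher at 24 h and Slc35a1 at 4 h, but these calls held in only 5 and 8 of 23 alternatives. Over the 4 times together Slc35a1 was not called (FDR = 0.0246 in edgeR). Nans, Nanp and Casd1 passed the test at no time.

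At 2 h 3 of the 10 genes were called at an adjusted p under 0.01 by edgeR, where 15.2% of all tested genes were called. Of these 1 was higher (6.6% of all genes) and 2 were lower (8.59%). At 4 h 5 were called, where 38.1% of all genes were, with 3 higher and 2 lower (18.1% and 19.9% of all genes). At 8 h the count was 6, where 50.4% of all genes were called, with 4 higher and 2 lower (25.3% and 25.1%). At 24 h it was 5, where 58.8% of all genes were called, with 3 higher and 2 lower (30.7% and 28.1%). At 24 h against 4 h 3 were called, 1 higher and 2 lower, where 48.3% of all genes were called (24.9% higher and 23.4% lower). By number, then, the group was not far from the transcriptome as a whole. At 24 h its median absolute log2 fold change of 0.30 was below the 0.60 of all tested genes. At 8 h it was above, at 0.58 against 0.50. At 2 h it was 0.15 against 0.22, and at 4 h 0.33 against 0.39. Over the 4 times together 6 of the 10 were called (Neu3, Neu1, Nagk, Gne, Npl and Cmas), where 74.2% of all genes were.

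**Figure D1:**
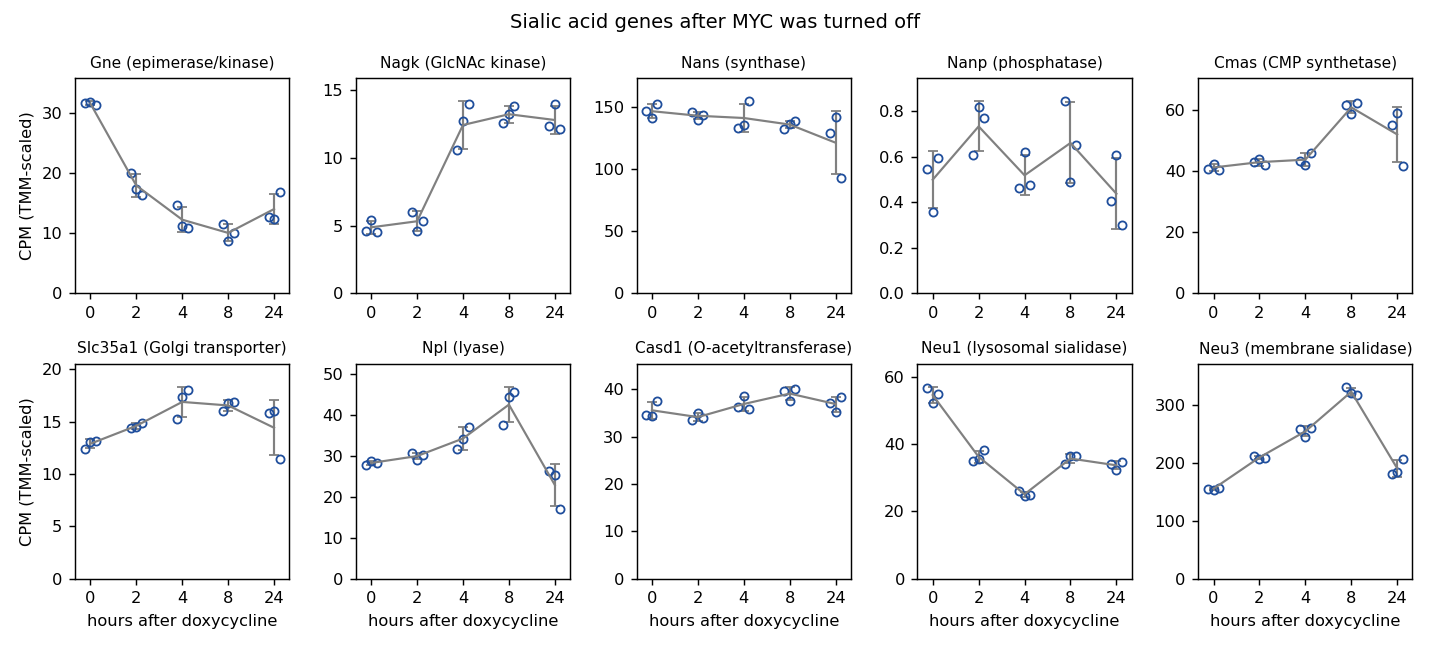
CPM on TMM-scaled totals (vertical axes, from 0) of the 10 genes by hours of doxycycline (0, 2, 4, 8 and 24, horizontal axes with even spacing), open circles being single libraries and grey marks their mean ± SD (n = 3). Gne and Neu1 lie below their 0 h libraries at every later time and Neu3 above, and the low 24 h circle of Nans, Cmas, Slc35a1 and Npl is replicate 3.

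MYC with its partner MAX binds the E-box letters CACGTG and, less tightly, variants of them. RefSeq promoter windows (GRCm38.p6, 250 bases before to 50 after an annotated start) were at hand for 8 of the 10 genes, with 10 windows in all. The letters CACGTG, which read the same on both strands, stood in 1 of these windows, that of an Npl start inside the gene as GENCODE places it, and in 7.15% of all 32851 windows. CACGCG, on either strand, stood in the Nagk window (9.27% of all windows) and CACATG in those of Neu1 and of a later Casd1 start (14.2% of all windows). Neither Gne start had any of these letters within its window, which says nothing of other stretches or of binding. The stretches before the start of the 4 genes with the clearest changes, and 30 bases around the Npl match, are shown 5′ to 3′ on the strand of the gene, with matched letters in capitals.
Gne, chr4:44084178-44084427, − strand: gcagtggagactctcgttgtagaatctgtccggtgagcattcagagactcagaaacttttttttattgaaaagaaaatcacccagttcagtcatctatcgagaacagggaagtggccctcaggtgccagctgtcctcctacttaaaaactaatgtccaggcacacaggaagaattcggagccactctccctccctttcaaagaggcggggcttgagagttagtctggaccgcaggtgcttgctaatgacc
Neu1, chr17:34931003-34931252, + strand: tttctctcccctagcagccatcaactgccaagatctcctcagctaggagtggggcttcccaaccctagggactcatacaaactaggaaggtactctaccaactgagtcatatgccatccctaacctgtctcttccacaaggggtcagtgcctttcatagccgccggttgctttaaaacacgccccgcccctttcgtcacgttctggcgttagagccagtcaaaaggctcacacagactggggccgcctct
Nagk, chr6:83794750-83794981, + strand: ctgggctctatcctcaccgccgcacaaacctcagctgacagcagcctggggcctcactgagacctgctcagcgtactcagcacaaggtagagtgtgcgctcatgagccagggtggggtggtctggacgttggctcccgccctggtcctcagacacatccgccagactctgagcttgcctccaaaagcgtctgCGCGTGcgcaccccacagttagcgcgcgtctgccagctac
Neu3, chr7:99828418-99828667, − strand: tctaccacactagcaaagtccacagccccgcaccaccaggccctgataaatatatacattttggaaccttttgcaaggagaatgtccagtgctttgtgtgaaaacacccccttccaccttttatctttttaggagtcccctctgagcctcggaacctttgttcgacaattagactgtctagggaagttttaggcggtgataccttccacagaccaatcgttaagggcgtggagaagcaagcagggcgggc
Npl, chr1:153549748-153549777, − strand: cccgcgcggcccCACGTGgtcccgcagccc

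Gne (ENSMUSG00000028479.18, chromosome 4 of GRCm38 from 44034075 to 44084177, − strand) encodes the UDP-GlcNAc 2-epimerase and ManNAc kinase, the rate-limiting enzyme of sialic acid synthesis, which CMP-sialic acid inhibits. Its 3 libraries were at 31.6, 31.9 and 31.2 CPM at 0 h, 20.0, 17.4 and 16.3 CPM at 2 h, and 14.6, 11.1 and 10.9 CPM at 4 h. They were at 11.5, 8.62 and 9.97 CPM at 8 h and 12.7, 12.4 and 16.8 CPM at 24 h, the highest of the last being replicate 3. No later library reached the lowest at 0 h. With TMM scaling Gne had fallen to 56.7% of its 0 h mean by 2 h, to 38.7% by 4 h and to 31.8% by 8 h. At 24 h it was at 44.3%, against 53.8% with library totals and 57.2% by TPM. In log2 fold change this was −0.82 at 2 h (SE 0.136, edgeR FDR, the Benjamini-Hochberg adjusted p, of 0.000382), −1.37 at 4 h (FDR = 8.08e-07), −1.65 at 8 h (FDR = 6.16e-08) and −1.17 at 24 h (FDR = 1.61e-06). At 2 h 2.81% of all tested genes had a lower log2 fold change. Each of these calls held in all 23 alternatives, though with library totals the value at 24 h was −0.90. Between 4 h and 24 h the change was 0.19 and not called (FDR = 0.245), and it was 0.04 without 24 h replicate 3.

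Nagk (ENSMUSG00000034744.13, chromosome 6 from 83794982 to 83804018, + strand) encodes the kinase that phosphorylates GlcNAc recovered from broken-down glycans and thereby returns it toward UDP-GlcNAc. Its libraries were at 4.602, 5.44 and 4.55 CPM at 0 h and 6.02, 4.56 and 5.37 CPM at 2 h, and these overlapped. At 4 h they were at 10.6, 12.7 and 14.004 CPM, at 8 h at 12.6, 13.3 and 13.8 CPM and at 24 h at 12.3, 13.95 and 12.1 CPM, all above every library at 0 and 2 h. Nagk rose, by log2 fold changes of 1.35 at 4 h (SE 0.129, FDR = 3.8e-07 in edgeR), 1.44 at 8 h (FDR = 9.95e-08) and 1.39 at 24 h (FDR = 1.02e-07). At 2 h the change was 0.13 (SE 0.136, FDR = 0.558). The rise at 4 h was exceeded by 2.35% of all tested genes, and from there to 24 h the change was 0.04 (SE 0.118, FDR = 0.774). The calls at 4, 8 and 24 h held in all 23 alternatives. Nagk rested on 115 to 158 counts per library at 0 and 2 h and on 275 to 413 counts later.

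Nans and Nanp carry out the next steps. Nans (ENSMUSG00000028334.10, chromosome 4 from 46489248 to 46503632, + strand), the synthase that joins ManNAc 6-phosphate to phosphoenolpyruvate, was at 146.4 ± 5.70 CPM at 0 h, 142.7 ± 2.87 CPM at 2 h, 140.9 ± 11.6 CPM at 4 h, 135.6 ± 3.01 CPM at 8 h and 121 ± 25.3 CPM at 24 h (SD, n = 3 each). Its log2 fold changes lay between −0.27 and −0.04 with SEs of about 0.112, and none was called. At 24 h its libraries were at 129, 142 and 92.8 CPM, and without replicate 3 the log2 fold change was −0.11 rather than −0.27. It passed the test at 24 h without 24 h replicate 2 (log2 fold change −0.41, FDR = 0.00369) and with no low-count filter (−0.32, FDR = 0.00481). The gene shares 1356 of its 4581 exon bases with Trim14 on the other strand, which had 2.43% as many counts.

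Nanp (ENSMUSG00000053916.4, chromosome 2 from 151029685 to 151039398, − strand), the phosphatase that releases free sialic acid, was barely detected, with 9 to 23 counts per library and 0.301 to 0.843 CPM. Its log2 fold changes ranged from −0.19 to 0.55 with SEs of 0.316 to 0.335, so that changes of the size seen for Neu3 at 2 h were not detectable at this depth. The gene shares 146 of its 1488 exon bases with Ninl on the same strand, which had 584 counts in all, against 227 for Nanp. The sources used here do not say how reads in both genes were counted.

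Cmas (ENSMUSG00000030282.14, chromosome 6 from 142756686 to 142775714, + strand) encodes the nuclear enzyme that joins sialic acid to CTP to form CMP-sialic acid. Its libraries were at 40.7, 42.5 and 40.4 CPM at 0 h, 42.9, 44.1 and 41.9 CPM at 2 h and 43.4, 41.9 and 46.0 CPM at 4 h, overlapping throughout. At 8 h they were at 61.8, 58.7 and 62.3 CPM, all above the earlier ones. At 24 h they were at 55.3, 59.0 and 41.8 CPM, and replicate 3 lay within the 0 h range. The log2 fold change was 0.56 at 8 h (SE 0.0971, FDR = 0.00012 in edgeR), which held in all 23 alternatives. At 24 h it was 0.34 (FDR = 0.00606), and this call held in 5 of 23 alternatives (FDR 5.19e-07 to 0.0832). Without 24 h replicate 3 it was 0.47 (FDR = 5.19e-07), and with library totals 0.61. At 24 h against 4 h it was 0.25 and not called (FDR = 0.0361), but 0.39 and called without 24 h replicate 3 (FDR = 1.29e-05) and 0.48 and called with library totals (FDR = 0.000272).

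Slc35a1 (ENSMUSG00000028293.14, chromosome 4 from 34663257 to 34687438, − strand) encodes the transporter that brings CMP-sialic acid into the Golgi. Its libraries were at 12.4, 13.1 and 13.2 CPM at 0 h, 14.4, 14.5 and 14.9 CPM at 2 h and 15.3, 17.3 and 17.999 CPM at 4 h. At 8 h they were at 15.98, 16.7 and 16.9 CPM and at 24 h at 15.8, 16.05 and 11.4 CPM, the lowest being replicate 3. All libraries at 2, 4 and 8 h were thus above those at 0 h, by small steps. Slc35a1 was called higher at 4 h (log2 fold change 0.39, SE 0.112, FDR = 0.00898 in edgeR), a call that held in 8 of 23 alternatives (FDR 0.000156 to 0.0797). At 8 h it was 0.36 (FDR = 0.0111, called in 5 of 23 alternatives, among them those without 24 h replicate 2 or replicate 3, with FDR 0.00883 and 0.000259) and at 24 h 0.16 (FDR = 0.212). Without 24 h replicate 3 the value at 24 h was 0.31 and called (FDR = 0.00267), as it was with library totals (0.43, FDR = 0.00157).

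Npl (ENSMUSG00000042684.8, chromosome 1 from 153503015 to 153550045, − strand) encodes the lyase that splits free sialic acid into ManNAc and pyruvate. Its levels were 27.7, 28.6 and 28.3 CPM at 0 h, 30.6, 29.0 and 30.0 CPM at 2 h and 31.5, 34.0 and 36.9 CPM at 4 h. The libraries at 8 h, at 37.5, 44.4 and 45.4 CPM, were the highest of the time course, and those at 24 h, at 26.2, 25.3 and 17.0 CPM, were the lowest with TMM scaling. By TPM the 24 h libraries were at 28.3, 27.2 and 21.1, of which replicate 3 alone lay below the 0 h libraries, whose mean was 24.99. At 4 h Npl was not called (0.28, FDR = 0.0834) except without 24 h replicate 3 (FDR = 0.00282). Npl rose by 8 h (log2 fold change 0.59, SE 0.127, FDR = 0.000883 in edgeR), a call lost without 8 h replicate 3 (0.49, FDR = 0.0107). At 24 h it was −0.30 against 0 h and not called (FDR = 0.0466), and −0.13 without 24 h replicate 3, but it was called with no low-count filter (−0.34, FDR = 0.00798). At 24 h against 4 h it fell (log2 fold change −0.58, FDR = 0.00113), which was −0.40 without 24 h replicate 3 and still called. The call was lost with library totals (−0.35, FDR = 0.0172) and when only these times were fitted (FDR = 0.0236).

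Casd1 (ENSMUSG00000015189.12, chromosome 6 from 4600839 to 4643355, + strand), which adds O-acetyl groups to sialic acid, was not called at any time. It was at 35.6 ± 1.75 CPM at 0 h, 34.1 ± 0.813 CPM at 2 h, 36.9 ± 1.41 CPM at 4 h, 39.1 ± 1.37 CPM at 8 h and 36.9 ± 1.59 CPM at 24 h. Its changes on the log2 scale lay between −0.06 and 0.14 with SEs of about 0.0645. With library totals it was called higher at 8 h (0.24, FDR = 0.00575, and also with upper-quartile factors) and at 24 h (0.33, FDR = 0.000483).

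Neu1 (ENSMUSG00000007038.5, chromosome 17 from 34931253 to 34935953, + strand) encodes the lysosomal sialidase, which works in a complex with the protective protein encoded by Ctsa. Its libraries were at 56.7, 52.0 and 54.8 CPM at 0 h, 34.8, 35.5 and 38.2 CPM at 2 h and 25.9, 24.5 and 24.9 CPM at 4 h. At 8 h they were at 34.2, 36.4 and 36.4 CPM and at 24 h at 33.9, 32.4 and 34.7 CPM. Every library after doxycycline was below every 0 h library, and those at 4 h were the lowest. Neu1 fell, and its log2 fold changes were −0.59 at 2 h (SE 0.0645, FDR = 8.37e-06 in edgeR), −1.12 at 4 h (FDR = 1.43e-09), −0.61 at 8 h (FDR = 7.07e-07) and −0.70 at 24 h (FDR = 1.18e-07). From 4 h to 24 h it rose by a log2 fold change of 0.42 (SE 0.0656, FDR = 5.39e-05). These 5 calls held in all 23 alternatives, though with library totals the value at 24 h against 0 h was −0.42 and that at 24 h against 4 h 0.65.

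Neu3 (ENSMUSG00000035239.6, chromosome 7 from 99811439 to 99828417, − strand) encodes the plasma membrane sialidase, which acts chiefly on gangliosides. Its libraries were at 156, 154 and 157 CPM at 0 h, 212, 207 and 209 CPM at 2 h and 258, 245 and 260.0 CPM at 4 h. They stood at 331, 319.9 and 317 CPM at 8 h and at 181, 184 and 207 CPM at 24 h. Up to 8 h each time point lay wholly above the one before, and at 24 h with TMM scaling the libraries lay above those of 0 h, with replicate 3 touching the 2 h range. By TPM the 24 h libraries, at 173.03, 174.9 and 228, lay above all 2 h libraries, at 163 to 172.8, so the order of 24 h and 2 h turned with the scaling. Neu3 rose, by log2 fold changes of 0.43 at 2 h (SE 0.0597, FDR = 8.1e-05 in edgeR), 0.71 at 4 h (FDR = 9.18e-08) and 1.05 at 8 h (FDR = 5.35e-10). At 24 h it was 0.29 (FDR = 0.000413), which was not called without a low-count filter and when only 0 h and 24 h were fitted (FDR 0.0128 and 0.0216), and 0.57 with library totals. From 4 h to 24 h it fell (log2 fold change −0.42, FDR = 2.5e-05), except that with library totals the change was −0.18 and not called (FDR = 0.022).

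**Figure D2:**
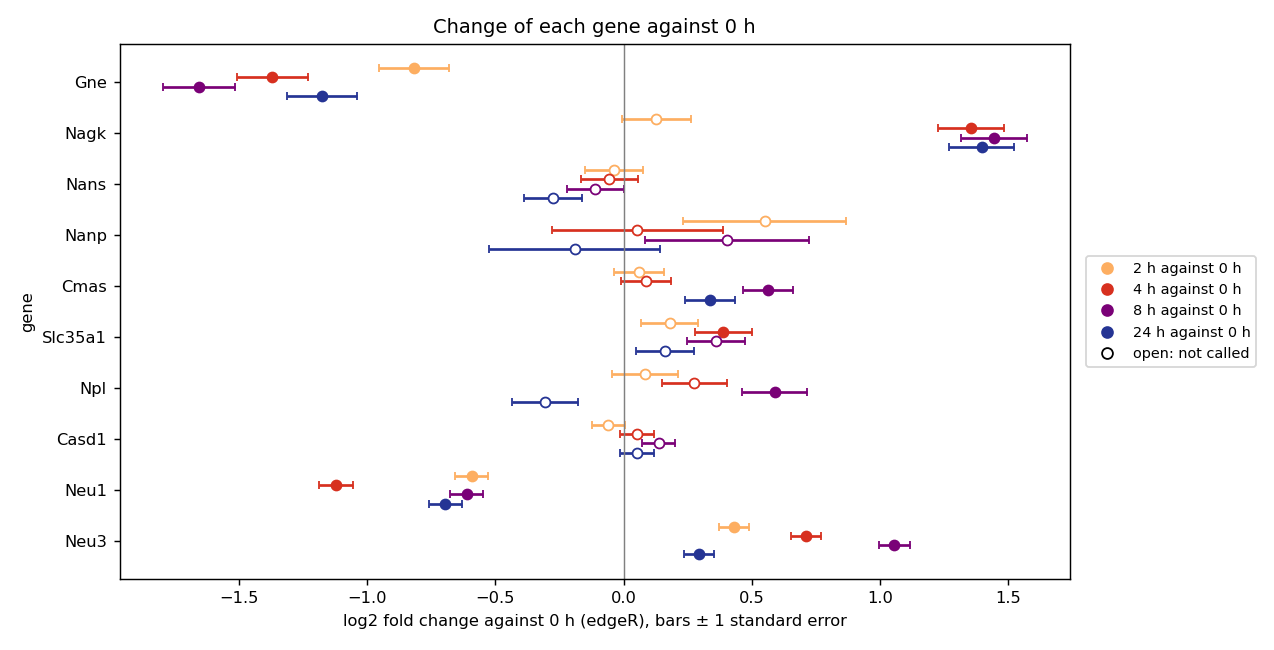
Log2 fold change against 0 h (horizontal axis, edgeR, bars ± 1 SE) of the 10 genes (rows) at 2, 4, 8 and 24 h, filled where the FDR was under 0.01. Gne and Neu1 lie left of 0 at every time, Nagk lies near 1.4 from 4 h on, and Neu3 moves out to 1.05 at 8 h.

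Ratios of genes within a library do not depend on how libraries are scaled. In TPM, which corrects for gene length, Neu3 stood to Neu1 as 3.06, 3.30 and 3.20 to 1 in the libraries at 0 h, as 6.80, 6.51 and 6.11 at 2 h and, at 4 h, as 11.1, 11.2 and 11.7. At 8 h the ratios were 10.8, 9.81 and 9.74 and at 24 h 5.96, 6.34 and 6.66. The balance of transcripts thus shifted toward the plasma membrane sialidase at each time, most at 4 h, with no overlap with 0 h. Nagk stood to Gne as 0.198, 0.232 and 0.198 at 0 h, and as 0.409, 0.357 and 0.447 at 2 h. By 4 h the ratios were 0.984, 1.55 and 1.74. At 8 h these ratios were 1.49, 2.09 and 1.89 and at 24 h 1.32, 1.53 and 0.979. Transcripts of the salvage kinase thus went past those of the first enzyme of synthesis in 7 of the 9 libraries from 4 h on and in 0 of the 6 earlier ones. Cmas stood to Gne as 5.86, 6.42 and 3.35 at 24 h, the lowest being replicate 3, against 1.74, 1.80 and 1.75 at 0 h, without overlap. With 3 libraries against 3, an exact two-sided permutation test cannot give a p below 0.1, so none is given for these ratios.

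**Figure D3:**
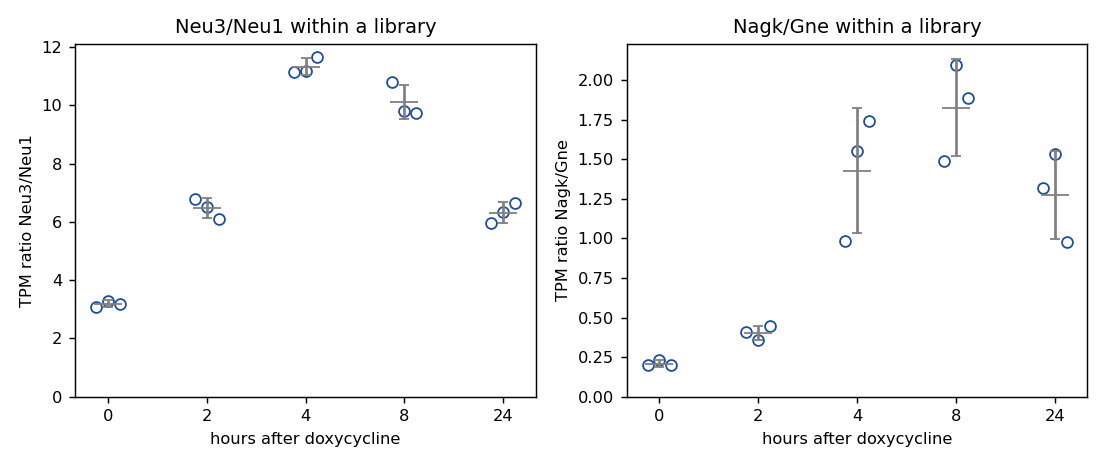
Ratio of TPM of Neu3 to Neu1 (left) and of Nagk to Gne (right) in each library (open circles) at 0, 2, 4, 8 and 24 h after doxycycline, with grey bars for mean ± SD. The first ratio averages 11.3 at 4 h, against 3.19 at 0 h, and the second 1.82 at 8 h, against 0.21 at 0 h.

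The 10 genes differed widely in level. By TPM at 24 h, against 0 h, Neu3 was at 192 ± 31.0, against 122 ± 2.80 (SD, n = 3 each), and Nans at 87.5 ± 12.02, against 83.8 ± 3.93. These were the highest at both times, without overlap with each other or the next gene. Below them at 0 h followed Neu1, Npl, Casd1, Cmas, Slc35a1, Gne, Nagk and Nanp, and of these neighbors only Casd1 and Cmas overlapped. At 24 h the order was Cmas, Casd1, Neu1, Npl, Slc35a1, Nagk, Gne and Nanp, with overlap between each neighboring pair from Cmas to Slc35a1 and between Nagk and Gne. The overlaps of Cmas with Casd1, Npl with Slc35a1 and Nagk with Gne came from 24 h replicate 3 and were not there in the other 24 h libraries. Nagk was at 9.15 ± 0.619 TPM at 24 h, against 2.73 ± 0.249 TPM at 0 h, and Gne at 7.45 ± 1.98 TPM, against 13.0 ± 0.217 TPM. TPM and TMM-scaled CPM differ most at 24 h. Relative to 0 h, Nans was then at 104% by TPM and 82.7% by TMM-scaled CPM. In the same order Npl was at 102% and 81.0%, Casd1 at 133% and 103.7%, and Neu3 at 157% and 123%. Gne was at 57.2% and 44.3%, Neu1 at 79.0% and 61.8%, and Nagk at 335% and 263%.

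**Figure D4:**
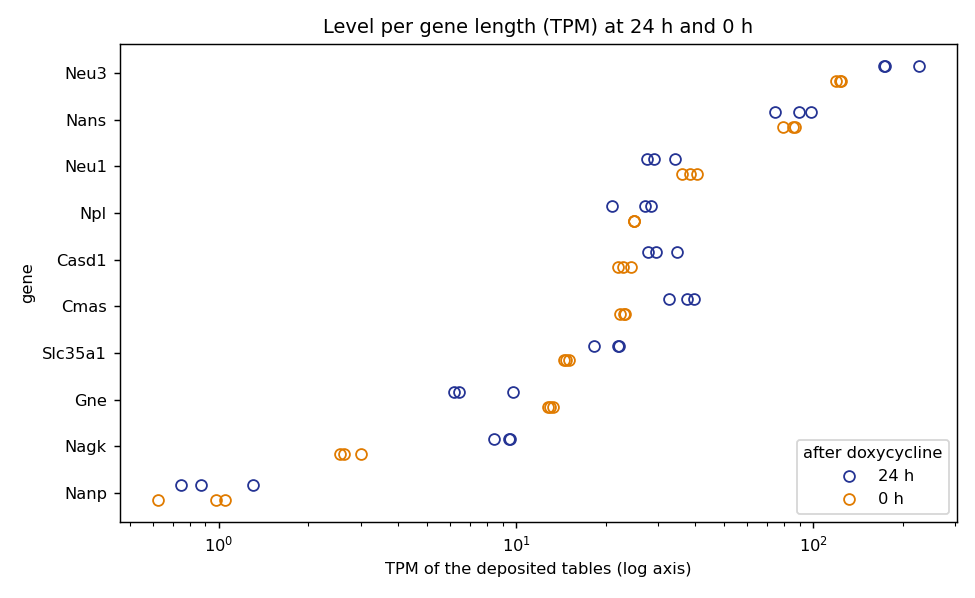
TPM of the deposited tables (horizontal log axis) for the 10 genes (rows, ordered by their 0 h mean), with the 3 libraries at 24 h above the 3 at 0 h. Levels run from under 1 TPM for Nanp to 228 TPM for Neu3 in 24 h replicate 3, and Gne and Nagk change places.

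Other genes around this pathway also changed in both directions, as the tested genes at large did. Of 11 further genes of sialic acid handling and its GlcNAc side branch, 9 were tested, while Neu2 had 0 counts and Neu4 2 counts over all libraries. Of the 9, 0 were called at 2 h by edgeR (2 at an unadjusted p under 0.05), where 15.2% of all genes were, and 0 by DESeq2. There were 4 higher and 1 lower at 4 h, 4 higher and 2 lower at 8 h, and 2 higher and 2 lower at 24 h. Slc17a5, which exports sialic acid from lysosomes, was at 35.3 CPM at 24 h, against 22.0 CPM at 0 h (log2 fold change 0.68, FDR = 3.57e-06). Renbp, which interconverts GlcNAc and ManNAc, was at 36.8 CPM, against 24.3 CPM (0.60, FDR = 5.14e-05). Gnpda1, a glucosamine-6-phosphate deaminase, was at 17.9 CPM, against 27.03 CPM (−0.60, FDR = 2.63e-06). Ctsa, the partner of Neu1, named here after its value was seen, was also lower at 24 h (−0.58, FDR = 9.84e-07). It was called lower at 8 h too (−0.23, FDR = 0.00572), but not at 4 h (−0.08, FDR = 0.291), when Neu1 was lowest. These 4 calls at 24 h held in all 23 alternatives.

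The substrate of Gne is made by the hexosamine pathway. Of its 5 genes 4 were tested, and Gfpt2 had 3 counts in all. At 2 h 0 were called by edgeR (3 at an unadjusted p under 0.05), where 15.2% of all genes were, and 1 by DESeq2. At 4 h 3 and at 8 h 2 were lower, where 19.9% and 25.1% of all genes were. At 24 h 3 were lower and 1 higher, where 28.1% and 30.7% of all genes were. At 24 h Pgm3, a phosphoacetylglucosamine mutase, was at 7.74 CPM, against 17.2 CPM at 0 h (log2 fold change −1.15, FDR = 1.56e-08). Gnpnat1, the glucosamine-phosphate acetyltransferase, was at 26.2 CPM, against 53.5 CPM (−1.03, FDR = 3.57e-06). Gfpt1, the entry enzyme, was at 51.2 CPM, against 68.3 CPM (−0.42, FDR = 0.000676), a call that held in 20 of 23 alternatives. Uap1, which forms UDP-GlcNAc and is named here after its value was seen, was the higher one (0.35, FDR = 0.000357). Of the 20 sialyltransferases, which spend the CMP-sialic acid, 10 were tested. Of these 1 was higher and 3 lower at 2 h (6.6% and 8.59% of all genes). At 4 h 1 was higher and 4 lower (18.1% and 19.9%), and at 8 h 2 and 4 (25.3% and 25.1%). At 24 h 3 were higher and 3 lower (30.7% and 28.1%). St6galnac4 had the largest called change at 24 h, at 8.25 CPM, against 78.1 CPM at 0 h (−3.24, FDR = 1.14e-11 in edgeR). It was lower still at 4 h, at 3.90 CPM (−4.32, FDR = 4.66e-12). Next at 24 h were St6gal1, at 40.9 CPM, against 16.7 CPM (1.29, FDR = 2.92e-09), and St3gal4, at 13.5 CPM, against 29.8 CPM (−1.14, FDR = 5.91e-08).

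The genes whose levels ran most like those of Gne over the 15 libraries, among 9050 other protein-coding genes with a mean of at least 5 CPM, were Snx27, Dpagt1 and Fasn (Pearson r of log2 CPM 0.988, 0.982 and 0.981). Fasn, fatty acid synthase, was at 378 CPM at 0 h, 189 CPM at 2 h, 90.8 CPM at 4 h, 84.7 CPM at 8 h and 124 CPM at 24 h. Most like Nagk were Hcfc2, B3gat3 and Suox (r 0.979, 0.979 and 0.975). B3gat3, a glucuronosyltransferase of glycosaminoglycan linkage, was at 47.9 CPM at 24 h, against 26.7 CPM at 0 h. The libraries fall into groups by time, so these values describe shared time courses and have no p.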

How the data were processed

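The authors deposited, for each of the 15 libraries, raw counts per gene and TPM (per their file headers), with FPKM and other length-scaled columns, which were not used. Tools listed in the submitters' processing notes are featureCounts, STAR 2.5.4b and cutadapt 1.16, with build mm10, and the sources used here give no strand setting or annotation release. Symbols and positions are from GENCODE M21 (GRCm38), to which 53274 of 53379 mouse IDs matched without version, and promoters from RefSeq.

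Counts were kept by filterByExpr, scaled by TMM and tested with glmQLFit and glmQLFTest of edgeR 4.0.16 (R 4.3.3) over all 15 libraries with 1 mean per time point, adjusted by Benjamini-Hochberg over all tested genes and called under 0.01. Later times were set against 0 h, whose libraries these contrasts share, and 24 h against 4 h. Standard errors were the log2 fold change over the square root of F. For an observed 0, a mean of about 3 counts was taken as the upper limit, for counting error only. This is 0.111 to 0.116 CPM on library totals without TMM scaling. The 23 alternatives per gene were other scalings, filters, fits, DESeq2 1.42.0, a replicate block and leaving out each library, with 22 for Nanp, which a minimum of 10 counts in every library removed.

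The genes, lists and named-gene rule were chosen with earlier results of these data known. The rule takes all 10 genes, up to 3 per further list with the largest called change at 24 h, and the 3 genes most alike, by Pearson correlation of log2 CPM (pseudocount 2), to the member with the largest called rise and fall.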

Additional observations from a re-analysis of the deposited data

Results flagged for a closer look

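For 3 genes the effect at 24 h and the effect at 4 h, each against 0 h, differed when 24 h was tested directly against 4 h, a contrast edgeR called for 48.3% of all genes. Neu1 was at 33.7 ± 1.17 CPM at 24 h, against 25.1 ± 0.751 CPM at 4 h (log2 fold change 0.42), and was below its 0 h level at both times. Neu3 was at 190.5 ± 14.3 CPM at 24 h, against 254 ± 8.51 CPM at 4 h (−0.42), and was above its 0 h level at both. Npl was at 22.8 ± 5.12 CPM at 24 h, against 34.2 ± 2.71 CPM at 4 h (−0.58), and its effects against 0 h had opposite signs, 0.28 at 4 h and −0.30 at 24 h, neither of them called with TMM and the low-count filter. Ribosomal protein genes also took a smaller share of counts at 24 h (3.18% to 5.29%) than at 4 h (10.5% to 11.8%), and their part in these differences was not tested.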

How the results depend on the processing

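Of 22 called changes 16 kept their call in every alternative and 0 changed direction. At 24 h against 0 h, 3 genes were higher and 2 lower. The higher count was 5 with library totals, 1 with no low-count filter and 1 when only these times were fitted, and the lower count was 4 with no filter and 4 at an adjusted p under 0.05. At 24 h against 4 h, where 1 was higher and 2 lower, the higher count was 3 with library totals and 2 at an adjusted p under 0.05, and the lower count was 0 with library totals and 1 when only these times were fitted. Leaving out 1 library in turn gave 1 to 2 higher at 24 h against 4 h, with 2 for Cmas and Neu1 without 24 h replicate 3. At 24 h against 0 h all genes had a median log2 fold change of 0.35 with library totals and 0.07 with TMM.

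Some values that were not called with TMM changed sign. With library totals these were Nans at 2 h (0.00929) and at 24 h against 4 h (0.00848), Nanp at 24 h (0.0798), Slc35a1 at 24 h against 4 h (0.000353) and Casd1 at 24 h against 4 h (0.23, called with that scaling). With upper-quartile factors they were Nans at 4 h (0.0452) and 8 h (0.0497) and Casd1 at 24 h against 4 h (0.0401), the last also with at least 10 counts in every library (0.05001). Without 1 library Nanp ranged from −0.14 to 0.19 at 4 h and from −0.50 to 0.0182 at 24 h, Casd1 from −0.0198 to 0.0923 at 4 h and from −0.0267 to 0.0322 at 24 h against 4 h, and Nagk from −0.0634 to 0.14 at 24 h against 4 h.

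Whether replicate numbers pair the libraries was not tested. Correlations of deviations between same-numbered libraries ran from −0.60 to 0.54 over 30 pairs, of which 13 were above 0.1. Of 15 libraries 7 correlated best with their own number. With the number as a replicate block, the calls of Cmas at 24 h (log2 fold change 0.33, FDR = 0.0103) and Slc35a1 at 4 h (0.39, FDR = 0.0152) were lost.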
